A study of Mus musculus with 9 samples.

Results

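The hepcidin and iron handling genes described here were 10 mouse genes measured in liver: the hepcidin genes Hamp and Hamp2, the genes of the bone morphogenetic protein (BMP) signal Bmp6, Id1 and Smad6, the transferrin genes Tfrc, Tfr2 and Trf, the ferritin heavy chain gene Fth1 and the iron exporter gene Slc40a1. A probe belonged to the set when its RefSeq accession mapped to 1 of these symbols; the array held 13 such probes among 55681 non-control probes. The livers came from 9 male mice at 20 weeks of age, 3 per group. Untreated STAM mice (STAM-NON) had received a low dose of streptozotocin as newborn pups and a high-fat diet from weaning, which gives diabetes, steatohepatitis and liver tumours. STAM-INS mice had the same history and were also given insulin glargine under the skin each day. Normal mice carried neither the streptozotocin injection nor, per the methods, the high-fat diet. The sources do not say whether a liver sample held tumour tissue, and STAM mice carry a DNA-damaging agent as well as diabetes and diet, so these cannot be told apart in a STAM group.

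Hepcidin is a peptide hormone that hepatocytes secrete when body iron is high. It binds ferroportin, the product of Slc40a1, and causes its removal from the cell surface, so that less iron leaves gut cells, macrophages and hepatocytes. BMP6 from liver sinusoidal endothelium raises Hamp transcription through SMAD proteins, inflammation raises it through STAT3, and a demand for iron by red cell precursors or low oxygen lowers it. Transferrin receptor 1, encoded by Tfrc, takes up transferrin-bound iron, and iron regulatory proteins stabilise its mRNA when iron in the cell is scarce.

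All values below are log2 processed signals minus the 75th percentile of the array (centred log2 signal), and a difference is between group means on that scale. Levels were compared for 1 probe at a time, never between probes. From 46.2% to 65.0% of spots per array were well above background, and no spot was saturated; the small number of arrays limits the precision. The mean of 10 hepatocyte markers lay between 8.11 and 8.62 on all 9 arrays, so the labelled tissue was present in each. All 13 probes passed the filter on dim probes. The 6 STAM arrays shared a slide and the 3 Normal arrays lay on another, so slide and group cannot be told apart in comparisons with Normal, whereas STAM-INS and STAM-NON were compared within 1 slide. In whole liver, fewer cells of a type and less RNA per cell cannot be told apart.

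Hamp varied more between STAM mice of the same group than any difference between groups. In Normal livers its centred log2 signal was 7.89, 7.44 and 6.26 in mice 1, 2 and 3. In STAM-NON livers it was 5.48, 4.62 and -2.53. In STAM-INS livers it was 7.21, -3.01 and 3.43. STAM-NON mouse 3 and STAM-INS mouse 2 thus stood far below the other 7 livers, while STAM-INS mouse 1 lay inside the Normal range. As processed signal, before centring, Hamp read 49.5 in STAM-NON mouse 3 and 31.6 in STAM-INS mouse 2, against 17222 to 58430 in Normal livers, and the spot was well above background on all 9 arrays. The highest STAM-NON liver exceeded the lowest by 257-fold and the highest STAM-INS liver exceeded the lowest by 1193-fold; the same ratio in Normal livers was 3.10.

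Hamp2, the neighbouring second hepcidin gene of the mouse, whose product is not known to act on iron, had its lowest values in the same 2 livers. Its centred log2 signal was 1.69, 3.27 and 2.02 in Normal livers. It was 2.54, -0.22 and -2.65 in STAM-NON livers and 4.36, -3.53 and 0.56 in STAM-INS livers. The highest of the 9 values was that of STAM-INS mouse 1, above each Normal liver. The transcripts of Hamp and Hamp2 are near copies, the probe letters were not used here, and a probe for either gene could also bind the other, so the pair is not independent evidence.

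The 250 bases before the start of each hepcidin gene are shown because both genes had their lowest values in the same 2 livers and both factors named above, the BMP signal and STAT3, act through promoter letters of this kind. The sequences are from RefSeq (GRCm38.p6), minus strand, at chr7:30944030-30944279 for Hamp and chr7:30924182-30924431 for Hamp2, and capitals mark matches to GGCGCC, the core of the BMP response element, and TTCNNNGAA, the STAT motif, searched on both strands.
Hamp: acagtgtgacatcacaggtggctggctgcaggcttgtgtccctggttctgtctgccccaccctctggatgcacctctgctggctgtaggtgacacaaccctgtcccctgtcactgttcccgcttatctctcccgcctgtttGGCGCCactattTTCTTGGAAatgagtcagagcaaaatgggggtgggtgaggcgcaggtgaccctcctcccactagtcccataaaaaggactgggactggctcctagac
Hamp2: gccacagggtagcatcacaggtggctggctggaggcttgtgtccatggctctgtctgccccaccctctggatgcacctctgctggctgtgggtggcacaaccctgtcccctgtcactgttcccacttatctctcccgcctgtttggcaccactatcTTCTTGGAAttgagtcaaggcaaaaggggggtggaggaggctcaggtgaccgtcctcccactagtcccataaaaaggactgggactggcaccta
The 2 windows were identical at 227 of 253 aligned positions (89.7%). GGCGCC occurred in the Hamp window, starting 109 bases before the gene start, and not in the Hamp2 window; 9.59% of 32851 mouse promoter windows of this length held it. TTCNNNGAA occurred in both, starting 97 and 94 bases before the gene start, and in 7.02% of all windows. The motifs do not overlap each other. Promoter entries were found for 7 of the 10 genes, and in the others no window held either motif apart from 1 of the 2 Tfrc windows, with GGCGCC. A match describes letters, not a bound site.

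**Figure D1:**
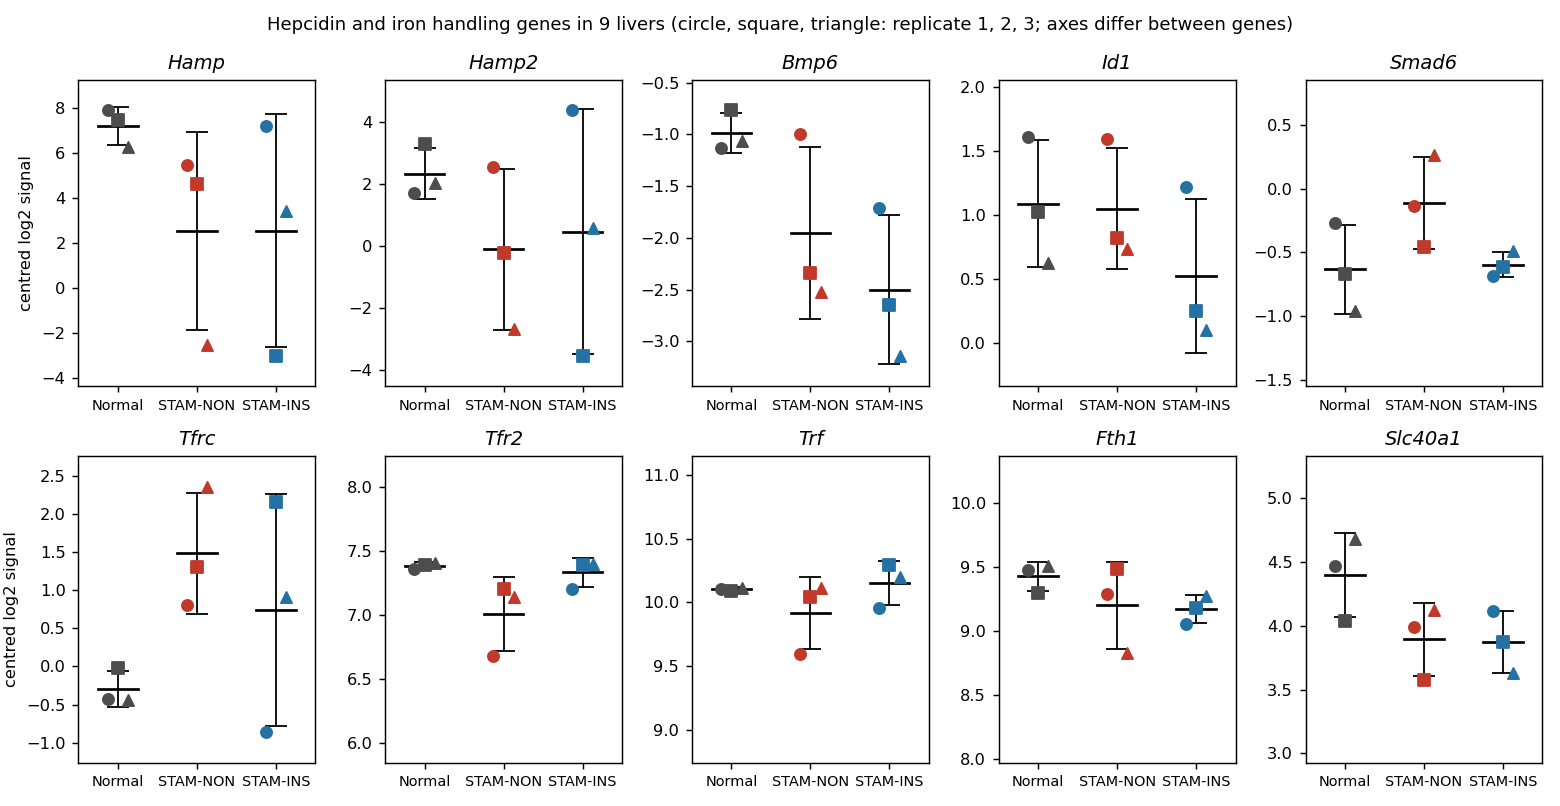
Centred log2 signal (vertical axis, its own range for each gene) of the 10 genes in Normal, STAM-NON and STAM-INS livers; each point is 1 mouse (circle, square and triangle for mice 1, 2 and 3), the line is the group mean and the bar the SD of 3 mice. Hamp and Hamp2 are lowest, and Tfrc highest, in STAM-NON mouse 3 and STAM-INS mouse 2.

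This spread set Hamp apart from the rest of the array. The SD of Hamp over 3 mice was 4.40 in STAM-NON and 5.17 in STAM-INS, the highest of all 26289 probes tested in each group, where the median probe had an SD of 0.23 and 0.18. Hamp2 ranked 30 in STAM-NON (SD 2.60) and 2 in STAM-INS (SD 3.94). In Normal livers the SD of Hamp was 0.84, rank 640, and that of Hamp2 0.83, rank 667. Tfrc followed with an SD of 1.52 in STAM-INS, rank 116, and 0.79 in STAM-NON, rank 1527. Fth1, Tfr2, Trf and Slc40a1 had an SD of 0.34 or below in every group, so the spread was not shared by all iron genes. These ranks describe 3 mice per group and were not tested.

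**Figure D2:**
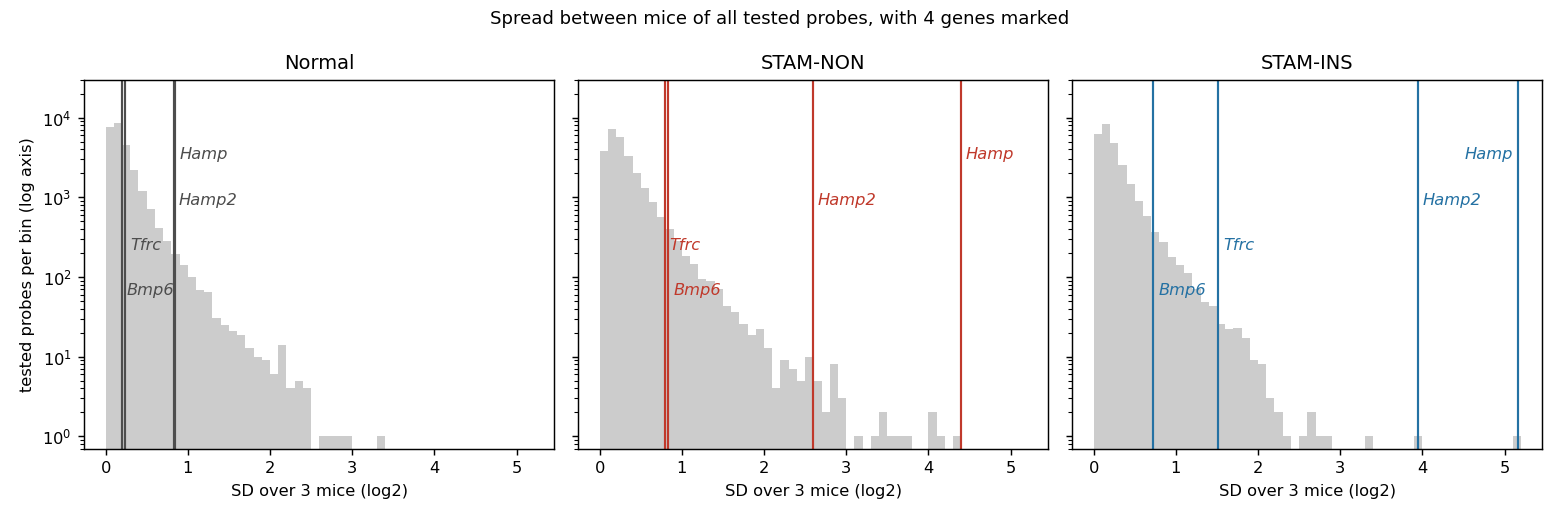
Number of tested probes (vertical axis, log scale) by SD over 3 mice (log2, horizontal axis) in each group, with vertical lines at Hamp, Hamp2, Tfrc and Bmp6. Hamp lies at the right end of both STAM distributions, at 4.40 and 5.17, and at 0.84 in Normal.

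Between groups, the mean of Hamp was 4.67 lower in STAM-NON than in Normal on the log2 scale (SE 2.72, 95% interval -10.90 to 1.56), a 25.5-fold difference that did not pass the test (limma, Benjamini-Hochberg adjusted p = 0.249). All 3 STAM-NON livers lay below all 3 Normal livers, in a comparison where 40.8% of all probes had groups that did not overlap; without STAM-NON mouse 3 the difference was -2.15. In STAM-INS the mean was 4.65 lower than in Normal (SE 2.72, limma adjusted p = 0.270), the groups overlapped, and without STAM-INS mouse 2 the difference was -1.87. The group means were 7.20 ± 0.84 in Normal, 2.52 ± 4.40 in STAM-NON and 2.55 ± 5.17 in STAM-INS (SD, n = 3 each). The means of STAM-INS and STAM-NON differed by 0.02 with an interval from -6.21 to 6.25 (limma adjusted p = 0.998), which is too wide to show that insulin left Hamp alone; leaving out STAM-NON mouse 3 gave -2.50, leaving out STAM-INS mouse 1 gave -2.31 and leaving out STAM-INS mouse 2 gave 2.80. With the array's row on the slide as a block, a fit that sets STAM-NON against STAM-INS mouse 1, the only STAM-INS array in the row of STAM-NON, the 3 differences in the same order were -11.67, -6.98 and 4.69 for Hamp and -8.28, -3.81 and 4.47 for Hamp2, and none passed. Hamp2 was 2.44 lower in STAM-NON and 1.86 lower in STAM-INS than in Normal, and 0.58 higher in STAM-INS than in STAM-NON (SE 1.91 each), with adjusted p of 0.385, 0.526 and 0.951 by limma.

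Tfrc ran opposite to hepcidin and was the only 1 of the 10 genes to pass the test on any probe, against 15.6% of all probes in STAM-NON against Normal. It passed on 2 of its 3 probes, but 1 of these was well above background on none of the 3 Normal arrays. That probe entered the test only through the STAM groups, so its pass is no separate support. By its brightest probe, printed on 10 spots, the centred log2 signal was -0.43, -0.03 and -0.44 in Normal livers. It was 0.80, 1.30 and 2.36 in STAM-NON livers and -0.86, 2.16 and 0.92 in STAM-INS livers. Every STAM-NON liver was above every Normal liver, and the highest values belonged to the 2 livers with the lowest Hamp. The lowest belonged to STAM-INS mouse 1, the STAM liver with the highest Hamp.

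The brightest Tfrc probe was 1.79 higher in STAM-NON than in Normal (SE 0.69, 3.45-fold, limma adjusted p = 0.108). The second probe (A_51_P167876) gave only a bound in Normal, where none of the 3 arrays measured it well above background. STAM-NON exceeded that bound by at least 2.36-fold. The limma adjusted p of this probe, 0.0298, rests on Normal values below that limit and does not measure the bound. The third probe (A_65_P06446) was 2.34 higher in STAM-NON (SE 0.60, 5.07-fold, limma adjusted p = 0.0365). In STAM-INS against Normal the brightest and the third probe differed by 1.04 and 1.46 and the second by at least 1.37-fold, and between the STAM groups the 3 probes differed by -0.75, -0.78 and -0.89, with STAM-INS the lower; none of these passed. The probes thus had the same direction in each comparison and gave different calls. Both calls were lost when STAM-NON mouse 3 or any 1 Normal mouse was left out, with differences from 1.93 to 2.43 for the third probe. The third also lost its call without STAM-NON mouse 1 (2.70), STAM-NON mouse 2 (2.39) or STAM-INS mouse 3 (2.34); with STAM-INS mouse 1 left out, the brightest probe passed too (1.79, limma adjusted p = 0.0444). With slide row as a block the brightest probe differed by 4.18 in STAM-NON and 1.84 in STAM-INS against Normal, and all 3 probes missed the threshold in STAM-NON.

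Red cell genes were high in the livers that were low in Hamp. Of 11 erythroid markers 5 were measured: the alpha globin genes Hba-a1 and Hba-a2, the beta globin gene Hbb-bt, Slc4a1, the anion exchanger of the red cell membrane, and Klf1, a transcription factor of red cell precursors. Their mean was 2.85 to 3.12 in Normal, 2.74 to 5.50 in STAM-NON and 3.14 to 5.28 in STAM-INS, with the highest values in STAM-NON mouse 3 and STAM-INS mouse 2. Hbb-bt was 5.15 to 5.36 in Normal, 5.09, 6.82 and 8.30 in STAM-NON mice 1 to 3 and 5.32, 8.64 and 7.63 in STAM-INS mice 1 to 3. Slc4a1 was -2.83 to -2.53 in Normal, -2.51, -1.29 and 2.65 in STAM-NON and -1.78, 1.72 and 0.66 in STAM-INS. The order of the STAM livers by Hbb-bt was close to the reverse of their order by Hamp. Klf1 did not share this pattern and was -1.75 in STAM-NON mouse 3 and -2.996 in STAM-INS mouse 2, within and below the Normal range of -2.26 to -1.22.

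None of the 5 erythroid markers passed in any comparison (limma; at an unadjusted p under 0.05 there was 1, Klf1 in STAM-INS against Normal, which was lower, at -0.82), and their part in the values of Hamp and Tfrc was not tested. Alas2, the red cell form of the first enzyme of heme synthesis, named here after its values were seen, was lower in every STAM liver (1.80 to 4.30) than in every Normal liver (4.88 to 5.24), with differences of -1.67 and -1.10 that did not pass (limma adjusted p = 0.0790 and 0.218). Erfe, which encodes erythroferrone, the hormone by which red cell precursors lower hepcidin, had 2 probes and neither was well above background on all arrays of a group; one reached -0.89 in STAM-INS mouse 3 and was well above background there and in STAM-INS mouse 1, and the other reached -4.57 in STAM-NON mouse 3 and was well above background there alone.

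Some of the other marker lists also moved with the 2 low-Hamp livers. Neutrophil markers had a mean of 3.86 in STAM-NON mouse 3 and 1.30 in STAM-INS mouse 2, against -1.47 to -1.08 in Normal and -0.98 to 0.71 in the other STAM livers. Elane did not share this pattern: it was 2.07 and 1.69 in the 2 livers, below 2.22 to 2.53 in Normal. It was lower in STAM-INS than in Normal (-0.58, limma adjusted p = 0.0189). Mpo was well above background on no Normal array and Retnlg only in Normal mouse 2, so the Normal mean is partly set by the dim limit. Acute phase genes, which inflammation raises together with Hamp, had a mean of 7.67 in STAM-INS mouse 2 and 6.67 in STAM-NON mouse 3, against 5.24 to 5.48 in Normal and 5.29 to 6.86 in the other STAM livers. Kupffer cell and macrophage markers had a mean of 4.35 and 4.49 in the 2 livers, against 2.57 to 3.15 in Normal and 3.39 to 4.19 in the other STAM livers. Hepatocyte markers were 8.37 in STAM-NON mouse 3 and 8.43 in STAM-INS mouse 2, ranks 8 and 7 from the highest of the 9 livers. All 6 STAM livers (8.11 to 8.51) lay below all Normal livers (8.57 to 8.62). Sinusoidal endothelial markers had their highest means in STAM-NON mouse 3 and STAM-INS mouse 2, at 2.91 and 2.55, but the markers differed. Lyve1 was 2.20 and 1.28 in these livers, against -2.18 to -1.17 in Normal. Clec4g was 4.71 and 4.98, below 5.24 to 5.34 in Normal, and Kdr was 3.59 in both, below 3.87 to 3.94. The remaining lists did not set both livers apart. In STAM-NON mouse 3 and STAM-INS mouse 2, stellate cell markers had means of 1.58 and 0.61 and cholangiocyte markers of -1.30 and -1.04. Lymphocyte markers had means of 1.42 and 0.68, against 0.56 to 0.84 in Normal. The part of any of these lists in the Hamp values was not tested.

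**Figure D3:**
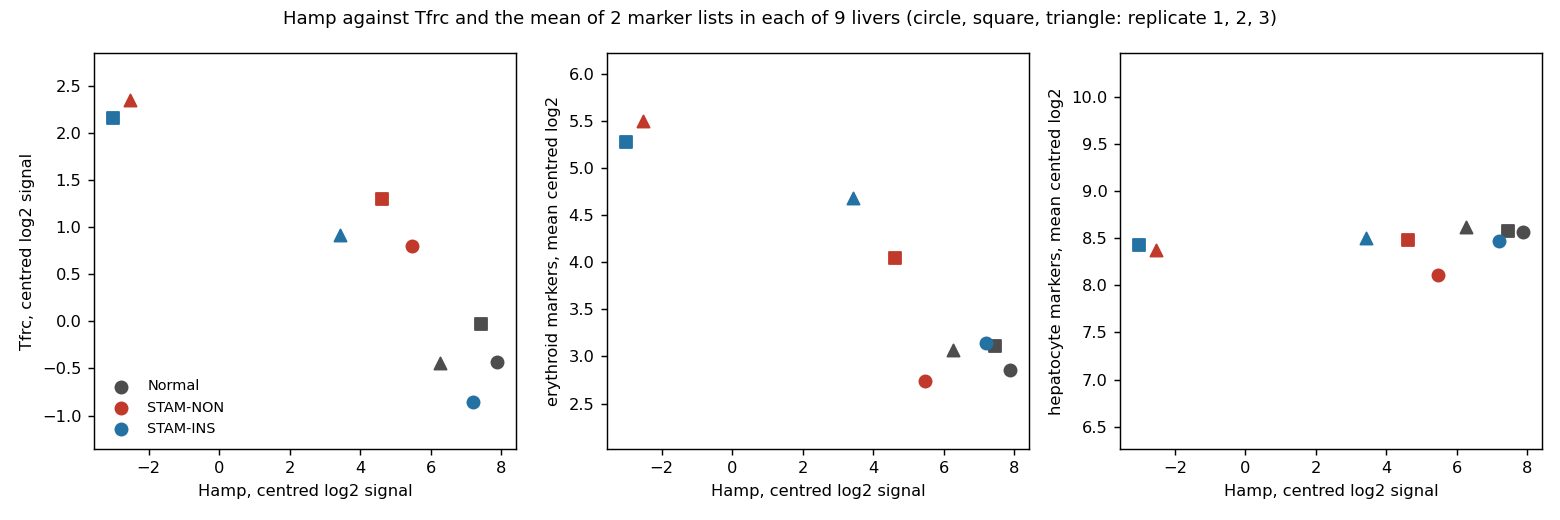
Tfrc and the mean of the erythroid and hepatocyte markers (vertical axes, centred log2, each spanning the same number of log2 units) against Hamp (horizontal axis, centred log2) in the 9 livers, coloured by group. Livers with low Hamp had high Tfrc and high erythroid markers, while hepatocyte markers stayed between 8.11 and 8.62.

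Bmp6 encodes the ligand that couples liver iron to Hamp, and its differences from Normal did not pass the test. Its centred log2 signal was -1.13, -0.77 and -1.06 in Normal, -0.997, -2.34 and -2.52 in STAM-NON and -1.72, -2.65 and -3.14 in STAM-INS. All STAM-INS livers lay below all Normal livers, and 2 of 3 STAM-NON livers did. The difference from Normal was -1.51 in STAM-INS (SE 0.45, 2.86-fold lower, interval -2.55 to -0.47, limma adjusted p = 0.0602) and -0.97 in STAM-NON (SE 0.45, limma adjusted p = 0.166). The first of these crossed the threshold without STAM-INS mouse 1 (-1.91, adjusted p = 0.0424) and when STAM-NON mouse 1 was left out of the shared fit (-1.51, adjusted p = 0.0298), also by limma. The 10 markers of sinusoidal endothelium, the main source of BMP6 in liver, had a mean of 2.18 to 2.34 in Normal, 2.14 to 2.91 in STAM-NON and 1.65 to 2.55 in STAM-INS, and their part in the Bmp6 values was not tested. With slide row as a block Bmp6 differed from Normal by -2.14 in STAM-NON. For STAM-INS against Normal that fit is the same as leaving out STAM-INS mouse 1, the only STAM-INS array in the row of STAM-NON. That fit therefore adds no separate crossing of the threshold. Counting both names of this fit and an unadjusted test, Bmp6 crossed the threshold in STAM-INS against Normal in 8 of 24 refits. These included median centring, normexp, only the 2 groups fitted and array weights. Of the 4 other scalings, 1 gave a crossing.

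Id1 and Smad6 are targets of BMP signalling that usually rise and fall with Hamp, Smad6 also acting as an inhibitor of the pathway. Id1 was 1.61, 1.02 and 0.63 in Normal, 1.59, 0.82 and 0.73 in STAM-NON and 1.21, 0.24 and 0.10 in STAM-INS. Smad6 was -0.27, -0.67 and -0.96 in Normal, -0.14, -0.46 and 0.26 in STAM-NON and -0.68, -0.61 and -0.49 in STAM-INS. Group ranges overlapped in all comparisons of both genes, except that all STAM-INS values of Smad6 lay below all STAM-NON values, with a difference of -0.48 (SE 0.22, limma adjusted p = 0.582). Neither gene fell by anything like the amount of Hamp in STAM-NON mouse 3 (0.73 and 0.26) or STAM-INS mouse 2 (0.24 and -0.61). Id1 differed from Normal by -0.04 in STAM-NON and -0.57 in STAM-INS, and Smad6 by 0.52 and 0.04, with SE of 0.37 and 0.22 and limma adjusted p from 0.131 to 0.952. With slide row as a block the differences of Id1 were -1.08 and -0.91, and neither passed.

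Ratios within an array do not depend on how arrays are scaled. The log2 ratio of Hamp to Id1 had a mean of 6.11 in Normal (SD 0.42, n = 3), 1.47 in STAM-NON (SD 4.10) and 2.03 in STAM-INS (SD 4.76). The STAM-NON and Normal ranges did not overlap (exact two-sided permutation p = 0.1, the smallest that 3 against 3 can give), while STAM-INS and Normal ranges did (exact permutation p = 0.2). The ratio of Tfrc to Fth1, whose products serve iron uptake and storage, was 2.01 higher in STAM-NON than in Normal with no overlap (exact permutation p = 0.1) and 1.29 higher in STAM-INS with overlap (exact permutation p = 0.3). The ratio of Id1 to Smad6 had a mean of 1.72 in Normal, 1.16 in STAM-NON and 1.11 in STAM-INS, and the groups overlapped (exact permutation p = 0.3 and 0.4 against Normal). STAM-INS against STAM-NON gave exact permutation p of 0.5, 0.9 and 1 for the Tfrc, Hamp and Id1 ratios, and after Benjamini-Hochberg adjustment over the 9 comparisons no p fell below 0.45.

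Tfr2, Trf and Fth1 had a narrow range across the 9 livers. Tfr2, the transferrin receptor of hepatocytes that senses iron for hepcidin, was 7.36 to 7.41 in Normal, 6.68, 7.21 and 7.14 in STAM-NON and 7.21, 7.39 and 7.40 in STAM-INS. Every STAM-NON value of Tfr2 was below every Normal value and every STAM-INS value, but the differences were small, at -0.38 (SE 0.15, limma adjusted p = 0.116) against Normal and 0.32 for STAM-INS over STAM-NON (SE 0.15, limma adjusted p = 0.584). Between the STAM groups the nearest values, 7.20543 in STAM-NON mouse 2 and 7.20625 in STAM-INS mouse 1, were a near tie. Trf, the plasma iron carrier transferrin, was 10.09 to 10.12 in Normal, 9.59 to 10.12 in STAM-NON and 9.96 to 10.30 in STAM-INS, and its 2 probes differed between groups by at most 0.23. Fth1 was 9.48, 9.30 and 9.51 in Normal, 9.29, 9.49 and 8.83 in STAM-NON and 9.06, 9.18 and 9.27 in STAM-INS; all STAM-INS values were below all Normal values, by 0.26 (SE 0.17, limma adjusted p = 0.334).

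Slc40a1 encodes ferroportin, the protein that hepcidin removes. Its centred log2 signal was 4.47, 4.03 and 4.68 in Normal, 3.99, 3.57 and 4.12 in STAM-NON and 4.11, 3.87 and 3.63 in STAM-INS. It was 0.50 lower in STAM-NON than in Normal (SE 0.22, limma adjusted p = 0.141) and 0.52 lower in STAM-INS (SE 0.22, limma adjusted p = 0.138), with overlap in both; with slide row as a block the first of these was -0.86. In STAM-NON mouse 3 and STAM-INS mouse 2 it was 4.12 and 3.87, not apart from the other STAM livers. The array measures its mRNA and says nothing of the protein that hepcidin acts on.

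**Figure D4:**
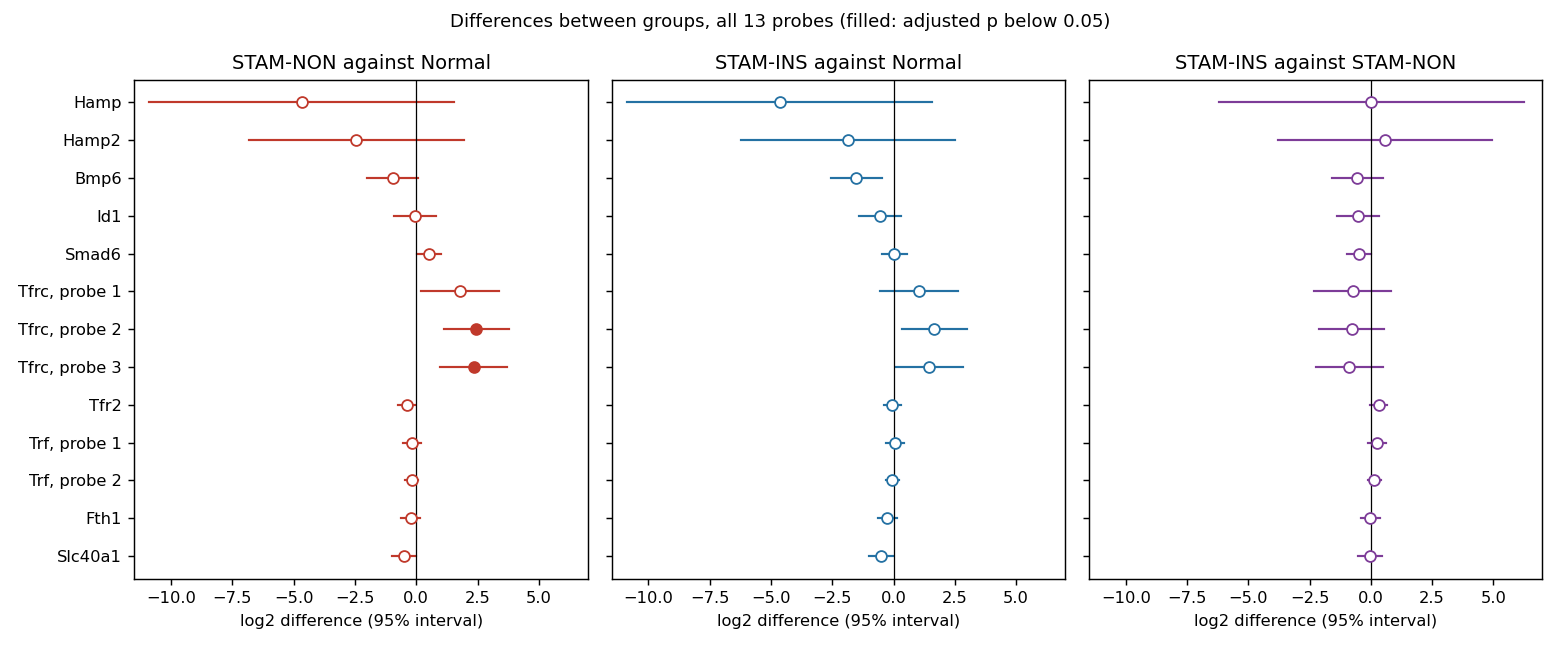
Differences between group means (points, log2, horizontal axis) with 95% intervals (lines) for all 13 probes in 3 comparisons; filled points passed an adjusted p of 0.05. The filled points are Tfrc probe 3 (2.34) and Tfrc probe 2 in STAM-NON against Normal. The points of Tfrc probe 2 against Normal are fitted values that count only as bounds, at least 2.36-fold in STAM-NON and 1.37-fold in STAM-INS, and the intervals of Hamp span over 12 log2 units.

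By the brightest probe of each gene, 0 of 10 genes passed in STAM-NON against Normal, where 15.6% of all tested probes passed, 0 of 10 in STAM-INS against Normal (13.6%) and 0 of 10 in STAM-INS against STAM-NON (0.0951%), by limma, since the Tfrc probes that passed are not the brightest. At an unadjusted p under 0.05 the counts were 4 (Tfrc, Tfr2, Slc40a1 and Smad6), 2 (Bmp6 and Slc40a1) and 0. The methods' t-test gave 1, 2 and 0 unadjusted and 0 in each comparison after Benjamini-Hochberg adjustment. Groups did not overlap for 3 genes in STAM-NON against Normal (Hamp, Tfrc and Tfr2; 40.8% of all probes), for 2 in STAM-INS against Normal (Bmp6 and Fth1; 43.8%) and for 2 in STAM-INS against STAM-NON (Tfr2 and Smad6; 12.1%). In STAM-INS against STAM-NON Tfr2 counts only through the near tie given above. The 3 comparisons share groups, and each count lay below the share of all probes or within 1 gene of it. The median difference of the 10 genes was -0.30, -0.39 and -0.03 in the same order of comparisons, beside -0.13, -0.09 and 0.02 for all tested probes.

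The wider network of iron genes, 106 measured genes in 9 lists, passed the test against Normal about as often as all probes did, in both directions. In STAM-NON 7 rose and 11 fell, and in STAM-INS 8 rose and 11 fell, which is 17.0% and 17.9% of the genes, beside 15.6% and 13.6% of all probes. Of all tested probes 6.36% rose and 9.20% fell in STAM-NON, and 5.19% rose and 8.45% fell in STAM-INS. None passed in STAM-INS against STAM-NON (limma; 6 at an unadjusted p under 0.05, and 4 by the methods' t-test unadjusted). The split depended on the scaling: with arrays centred on the E1A spike-in controls it was 10 higher and 1 lower in STAM-NON and 8 and 4 in STAM-INS, with quantile normalisation 8 and 4 in STAM-NON and 9 and 8 in STAM-INS, and with the percentile over probes detected on all arrays 9 and 6 in STAM-NON and 8 and 7 in STAM-INS. With arrays centred on the median more genes stayed lower, at 5 higher and 9 lower in STAM-NON and 6 and 7 in STAM-INS. Centring on the spike-ins moved the median difference of all probes by 0.26 in STAM-NON and 0.11 in STAM-INS. None of the individual calls changed direction under these scalings. The median difference of the 106 genes was -0.19 in STAM-NON and -0.12 in STAM-INS. The counts moved with single mice: in STAM-NON against Normal they were 5, 29 and 8 without STAM-NON mouse 1, 2 or 3 and 3, 4 and 0 without Normal mouse 1, 2 or 3, and in STAM-INS against Normal 11, 5 and 9 without STAM-INS mouse 1, 2 or 3 and 9, 7 and 6 without Normal mouse 1, 2 or 3.

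Among 19 genes that control hepcidin through BMP, hemojuvelin and HFE, 3 rose and 4 fell in STAM-NON (36.8% of the list, beside 15.6% of all probes) and 3 rose and 3 fell in STAM-INS (31.6%, beside 13.6%). The risers were extracellular. Bmper, which encodes a secreted BMP-binding protein, was -1.23 to 0.55 in the 6 STAM livers and -4.00, -2.58 and -6.06 in Normal. Only 1 of 3 Normal arrays was well above background, so its probe entered the test only through the STAM groups. Its calls (limma adjusted p = 0.0266 in STAM-NON and 0.0259 in STAM-INS) are therefore no separate support, though the counts above include them. The size of its rise was poorly fixed, from 1.56 to 4.59 over the other settings. Fst, which encodes the activin and BMP antagonist follistatin, was 2.27 higher in STAM-NON (SE 0.51, limma adjusted p = 0.0263) and 2.79 higher in STAM-INS (limma adjusted p = 0.0133). Fgl1, which encodes a liver secreted protein that binds BMP6, was 1.78 higher (SE 0.37, limma adjusted p = 0.0206) and 2.37 higher (limma adjusted p = 0.00742); its values were 6.29 to 6.84 in Normal, 7.56, 8.47 and 9.06 in STAM-NON and 8.59, 9.36 and 8.92 in STAM-INS.

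Fgl1 was thus highest, within each STAM group, in the liver with the lowest Hamp. Smad9, a receptor-activated SMAD, was 1.41 lower in STAM-NON (SE 0.27, limma adjusted p = 0.0170) and 1.82 lower in STAM-INS (limma adjusted p = 0.00629). The other genes of the list that fell, named after their values were seen, were the endothelial ligand gene Bmp2 (-0.99 and -1.25), the receptor gene Acvr2b (-0.99 and -1.17) and, in STAM-NON, Tmprss6 (-0.56), which encodes the protease that restrains hepcidin. In STAM-NON the calls of Bmp2 and Tmprss6 held under 1 of 4 other scalings and were lost in 12 and 13 of 24 refits. Hjv and Hfe, the hemojuvelin and hemochromatosis genes, differed from Normal by 0.02 and -0.21 in STAM-NON and by 0.38 and -0.07 in STAM-INS, without passing. Of the 7 other BMP target genes none passed in STAM-NON, and in STAM-INS Msx2 fell by 0.63 (SE 0.15, limma adjusted p = 0.0324) while Id2, Id3, Smad7 and Atoh8 did not pass (limma adjusted p from 0.401 to 0.976). The 1 call in STAM-INS is 14.3% of this list, beside 13.6% of all probes.

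Of 12 genes that link inflammation and stress to hepcidin, 2 rose in STAM-NON and 3 in STAM-INS, and none fell (16.7% and 25% of the list, beside 15.6% and 13.6% of all probes). Inhbb, the activin B subunit gene, was 2.81 higher in STAM-NON (SE 0.54, limma adjusted p = 0.0173) and 1.92 higher in STAM-INS (limma adjusted p = 0.0494). Socs3, a feedback inhibitor that STAT3 induces, was 1.12 higher (SE 0.27, limma adjusted p = 0.0313) and 1.63 higher (limma adjusted p = 0.00980), and Il22ra1, a receptor chain for interleukin-22, was 1.60 higher in STAM-INS (SE 0.34, limma adjusted p = 0.0218). Il6 was not well above background on all arrays of any group; it was so on 2 arrays of each STAM group and on no Normal array.

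Among 14 uptake genes 2 rose in STAM-NON and 1 in STAM-INS, 14.3% and 7.14% of the list and thus no more than the 15.6% and 13.6% of all probes. Lcn2, which encodes lipocalin 2, a siderophore-binding protein of the acute phase, was 0.28, 1.06 and 0.09 in Normal, 5.64, 3.90 and 6.47 in STAM-NON and 5.43, 8.31 and 5.08 in STAM-INS. It was 4.86 and 5.79 higher than in Normal (SE 0.91, limma adjusted p = 0.0165 and 0.00769), and within each STAM group it was highest in the liver with the lowest Hamp. Slc22a17, a receptor gene for lipocalin 2, was 0.78 higher in STAM-NON (SE 0.17, limma adjusted p = 0.0244). Lcn2 is also a neutrophil gene, and the mean of the neutrophil markers given above was higher in the same livers.

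Of 5 genes of iron sensing inside cells, 1 fell in STAM-NON and 2 in STAM-INS, and none rose. That is 20% and 40% of a list of only 5 genes, beside 15.6% and 13.6% of all probes. Ireb2, which encodes iron regulatory protein 2, was 0.96 lower in STAM-NON (SE 0.19, limma adjusted p = 0.0194) and 0.82 lower in STAM-INS (limma adjusted p = 0.0297), and Aco1, which encodes iron regulatory protein 1, was 0.57 lower in STAM-INS (SE 0.14, limma adjusted p = 0.0353). None of 5 storage and delivery genes and neither of the 2 ferroxidase genes passed in any comparison.

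Of 20 heme genes 3 fell in STAM-NON, and 3 fell and 1 rose in STAM-INS, 15% and 20% of the list beside 15.6% and 13.6% of all probes. Bach1, a heme-sensing repressor, fell by 0.77 (SE 0.15, limma adjusted p = 0.0172) and by 1.17 (limma adjusted p = 0.00368), Alad, a gene of porphyrin synthesis, fell by 0.58 and 0.61, and Abcb6, a porphyrin transporter gene, fell by 0.71 in STAM-INS, while Flvcr1, a heme exporter gene, was 0.66 higher in STAM-INS. The second Alad probe differed by -0.21 and -0.18. Of 22 genes of mitochondrial iron and iron-sulfur clusters 3 fell in STAM-NON and 2 in STAM-INS, 13.6% and 9.09% of the list and below the shares of all probes: the ferredoxin gene Fdx1 by 0.75 and 0.82, the cluster assembly gene Ciao1 by 0.42 and 0.36, and the transporter gene Abcb10 by 0.80 in STAM-NON. No gene of this list rose past the threshold. Several calls in these lists were close to it: under none of the 4 other scalings did Ciao1 pass in either comparison, Alad in STAM-NON or Abcb6 and Inhbb in STAM-INS. Abcb10, Bmp2 and Tmprss6 in STAM-NON and Alad, Msx2 and Aco1 in STAM-INS passed under 1 of them.

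**Figure D5:**
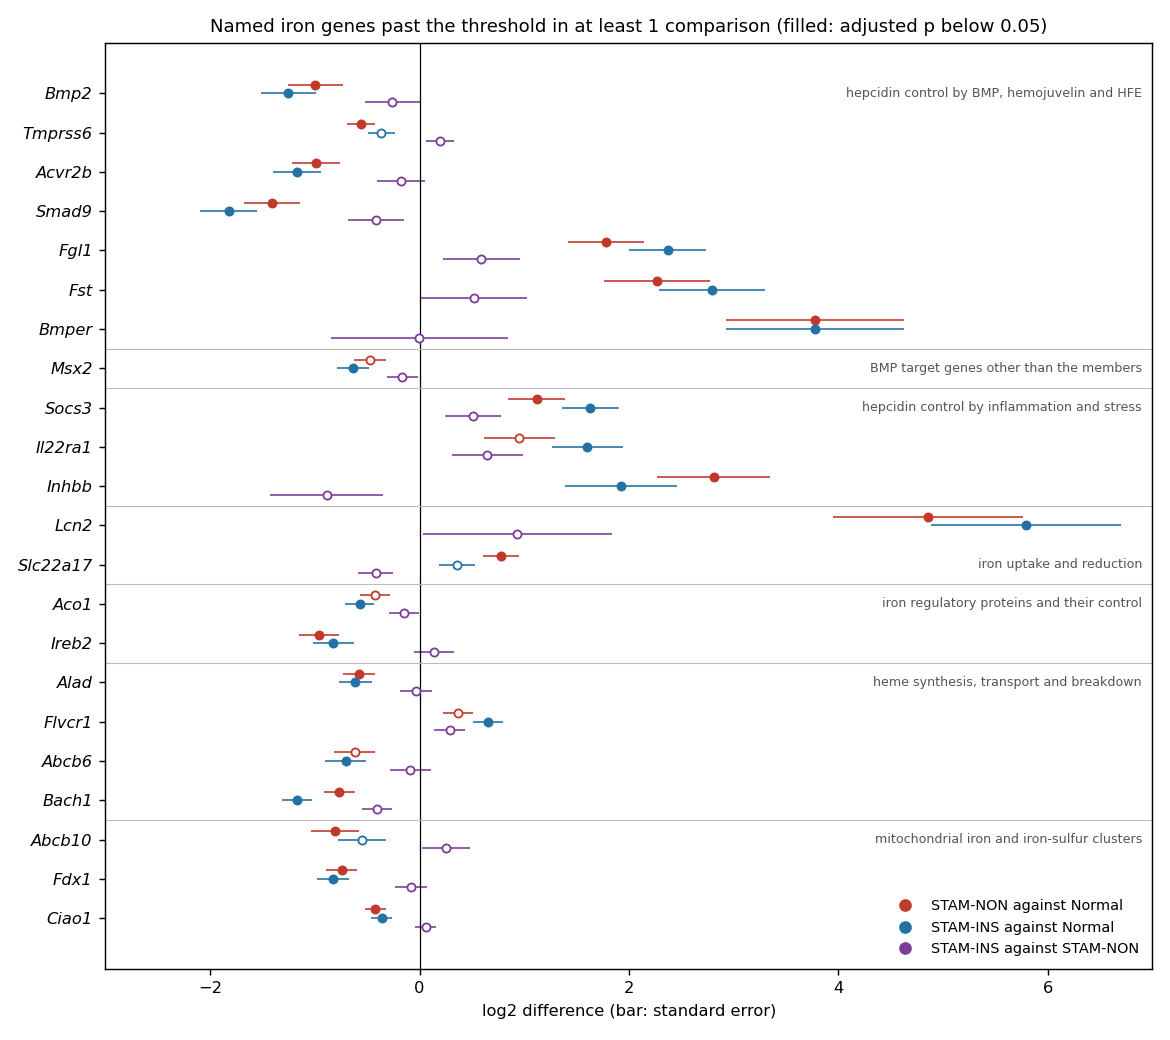
Differences between group means (points, log2, horizontal axis; bars are standard errors) of the iron genes named in the text, outside the 10, that passed in at least 1 comparison, grouped by list; filled points passed an adjusted p of 0.05. Lcn2 (4.86 and 5.79) lies farthest to the right and Smad9 (-1.41 and -1.82) farthest to the left; the points of Bmper against Normal rest on 1 of 3 Normal arrays well above background, and no point of STAM-INS against STAM-NON is filled.

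Likeness of pattern was measured by Pearson's r over the 9 livers across 13381 genes, with no test, since the livers share their slide and group. Spearman's rho was between 0.83 and 0.92 for the genes named as most like Hamp. These were Gsta2 (r = 0.97), Oxa1l (0.96), Gpat4 (0.95), Pcm1 (0.95) and Sult2a8 (0.94). Gsta2, a glutathione transferase gene, was 6.58 to 6.83 in Normal and fell to 2.81 in STAM-NON mouse 3 and 3.48 in STAM-INS mouse 2, against 4.74 to 6.46 in the other STAM livers. Sult2a8, a liver sulfotransferase gene, was 3.96 and 2.97 in the same 2 livers, against 5.78 to 7.24 in the other 7. The order therefore rested largely on 2 livers: without them r was 0.90 for Gsta2 and 0.67 to 0.79 for the other 4.

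The genes most opposite to Hamp, looked up after the values were seen, were Ankrd37 (r = -0.97), P4ha1 (-0.96), Gpi1 (-0.95), Apol11b (-0.95) and Tspo2 (-0.94). Without STAM-NON mouse 3 and STAM-INS mouse 2, r was -0.81, -0.79, -0.87, -0.84 and -0.64 in the same order. Apol11b was well above background on only 5 of the 9 arrays. Ankrd37, P4ha1 and Gpi1 are known targets of hypoxia-inducible factors, and Tspo2 is a gene of red cell precursors. A part of low oxygen or red cell precursors in the Hamp values was not tested. Ankrd37 was 2.19 in STAM-NON mouse 3 and 2.53 in STAM-INS mouse 2, against -1.77 to 0.27 in the other livers. Hamp2 ranked 13 in likeness to Hamp (r = 0.93, and 0.69 without the 2 livers). Tfrc had r = -0.91 with Hamp, and -0.82 without them, Bmp6 0.71 and 0.80, and Id1 0.61 and 0.68.

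The genes most like Tfrc were Vopp1 (r = 0.95), Gpr4 (0.94), Maf (0.93), Tpi1 (0.93) and Arrb1 (0.92). Vopp1 was 1.34 to 1.61 in Normal and in STAM-INS mouse 1, and 2.31 to 2.84 in the other 5 STAM livers. With the 2 livers farthest from the median of Tfrc left out, STAM-NON mouse 3 and STAM-INS mouse 1, r was between 0.87 and 0.96 for the 5 genes.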

How the data were processed

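Total RNA from 9 livers was labelled with Cy3 and hybridised, 1 liver per array, to 1-colour Agilent mouse arrays of an mm9 design. The authors deposited scanner output of Agilent Feature Extraction 11.5.1.1; its processed signal is an intensity already background-subtracted. Spots flagged as outliers (161 to 217 per array) were left out, spots of a probe averaged, and log2 values computed from the deposited intensity and centred on each array's 75th percentile. Symbols came from RefSeq accessions (27650 probes, 20968 symbols). Of 55681 probes, 26289 with at least 0.5 of spots well above background on all 3 arrays of a group were tested with limma 3.58.1 (R 4.3.3) on all 9 arrays, with Benjamini-Hochberg adjustment over all tested probes and a threshold of 0.05. Scripts were tested on simulated data. Within-array ratios used exact permutation tests (SciPy 1.17.1). A gene is given by its probe of highest mean. Where no array of a group measured a probe well above background, that group has a bound only, set from the lowest signal well above background. The 10 genes and the lists were chosen with earlier results of these data known. Every probe of the 10 genes is named, up to 4 called genes per list and comparison, and the 5 genes most like Hamp and Tfrc. A few genes of the lists enter the counts and are not reported here by name. The limma p-values set each difference against 1 estimate of the spread between mice per probe, shared by the 3 groups and moderated over all tested probes. In comparisons with Normal they cannot separate group from slide.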

Additional observations from a re-analysis of the deposited data

How the results depend on the processing

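The 36 differences tested over the 10 genes and the extra Tfrc probes kept their direction and side of the threshold in 772 of 855 refits; 19 passed only there, 19 lost a call and 45 changed sign, all of them differences that had not passed. The 37 calls among other iron genes kept direction throughout (560 of 886 refits kept the call, 326 lost it); Smad9, Fgl1 and Bach1 in STAM-INS against Normal passed in every refit. The cause of the changes below was not tested. Of the 10 genes, 1 passed in STAM-NON against Normal under normexp, with only the 2 groups fitted, with the mean of a gene's probes and by the methods' t-test unadjusted, and 0 to 1 with 1 mouse left out. In STAM-INS against Normal 1 passed with median centring, normexp, 2 groups, array weights or slide row as a block, 2 by the methods' t-test unadjusted, and 0 to 1 with 1 mouse left out. For this comparison the slide row fit and the fit without STAM-INS mouse 1 are the same fit. Of the 106 iron genes, the 18 calls in STAM-NON against Normal became 11 with spike-in centring, 0 with no filter on dim probes, 9 with 2 groups, 0 with slide row, 34 by the methods' t-test and 0 after its Benjamini-Hochberg adjustment, and 0 to 29 with 1 mouse left out. The 19 in STAM-INS against Normal became 12 with spike-in centring, 4 with no filter, 29 with array weights, 11 with slide row, 46 by the methods' t-test and 10 after its adjustment, and 5 to 24 with 1 mouse left out. STAM-INS against STAM-NON gave 4 by the methods' t-test unadjusted and 0 to 0 with 1 mouse left out. Replicate numbers do not pair the mice, and with the replicate block the counts were 10 in STAM-NON and 11 in STAM-INS against Normal and 0 in STAM-INS against STAM-NON.

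Signs changed as follows, in log2. STAM-NON against Normal: with quantile normalisation Trf was 0.074, Fth1 0.077 and Id1 0.045; with detected-probe scaling Id1 was 0.12; with spike-ins Trf was 0.077, Fth1 0.037 and Id1 0.23; with normexp Id1 was 0.0068, with array weights 0.16, and with slide row Trf was 0.10. STAM-INS against STAM-NON: Hamp was -0.017 with detected-probe scaling, -0.13 with spike-ins and -0.045 with array weights, Slc40a1 0.015 with normexp and 0.22 with slide row, and Bmp6 and Id1 0.24 and 0.17 with slide row. STAM-INS against Normal: Tfr2 was 0.15 with quantile, 0.063 with detected-probe and 0.060 with spike-in scaling and 0.00936 with slide row; Trf and Smad6 were -0.13 and -0.14 with median centring, Smad6 -0.10 with normexp, and Trf -0.000411 with the mean of its probes. With 1 mouse left out in turn the ranges that crossed 0 were, in STAM-INS against STAM-NON, Fth1 from -0.21 to 0.11, Slc40a1 from -0.18 to 0.10, Hamp from -2.50 to 2.80, Hamp2 from -1.37 to 2.57, Tfrc from -1.46 to 0.051. They were, in STAM-NON against Normal, Id1 from -0.31 to 0.23. They were, in STAM-INS against Normal, Tfr2 from -0.088 to 0.00936, Hamp2 from -3.81 to 0.13, Trf from -0.025 to 0.14, Smad6 from -0.12 to 0.22. Ratios stayed within 1 SD in all settings run. The Tfrc calls were also lost with no filter, with slide row and by the methods' t-test after adjustment, and the second probe with quantile normalisation and normexp. The dim limit of the arrays bounds Tfrc probe 2 in Normal, and the 3 mice per group limit every interval.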
